A study of Mus musculus with 4 samples.

Results

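Immediate early genes were followed across 4 sorted populations of red cell precursors from the mouse fetal liver. The genes were the 10 named Fos, Fosb, Jun, Junb, Jund, Egr1, Ier2, Ier3, Dusp1 and Atf3, taken by symbol, and all 10 were found among the 19564 symbols in the deposited tables. Livers were of embryonic day 14.5 (E14.5), and the cells were separated by TER119, an antigen of the red cell lineage, and CD71, the transferrin receptor, which appears and is later lost. R2 holds proerythroblasts and early basophilic erythroblasts. R3 holds early and late basophilic erythroblasts. R4 is mainly polychromatophilic and orthochromatophilic, and R5 holds late orthochromatophilic erythroblasts with reticulocytes. RNA came straight from sorted cells with no culture and no treatment, and each population gave 1 library. For the mouse strain, the number of embryos pooled and any further marker in the sort, nothing is given in the sources used here. With 1 library per population no difference has a replicate check, and no test across genes was possible.

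Immediate early genes are transcribed within minutes of a growth factor, cytokine or stress signal, from factors already in the cell, and their messages are as a rule short-lived. FOS and FOSB pair with the JUN proteins to form AP-1, a transcription factor dimer, and ATF3 is a related leucine zipper protein. EGR1 is a zinc finger transcription factor, and DUSP1 removes phosphate from MAP kinases and so limits the signal that induces the group. IER2 is a nuclear protein and IER3 a protein linked to cell survival under stress. In blood formation FOS, JUN and EGR1 are best known from the myeloid lineages, where Egr1 acts in the macrophage branch, and handling or dissociating tissue can itself induce the group.

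Values are RPKM (reads scaled to gene length and library size), which allow levels of different genes to be set side by side. The step size of the values implied 22956841 reads for R2 and 25627883, 27419797 and 20725389 reads for R3, R4 and R5. Reads behind each value were estimated from that depth and the transcript length, and the 95% intervals below cover counting error only. Globin transcripts took 5.52% of the summed RPKM in R2, against 59.4%, 80.4% and 81.9% in R3, R4 and R5, which lowers the RPKM of every other gene. Markers of erythroblasts summed to 11650 RPKM in R2 and 162900, 283500 and 356900 RPKM in R3, R4 and R5, and none of the 10 was at 0 in any library. Most of that sum was globin, with Hba-a1 alone at 9072 RPKM in R2 and 306180 RPKM in R5. The median of the 10 markers stood at 909%, 944% and 447% of the R2 value in R3, R4 and R5. Between R4 and R5, 3 of them were at least 2-fold lower in R5 and 0 higher. Markers of granulocytes were also present, at 6191 RPKM in R2 and at 430.0, 237 and 474 RPKM in R3, R4 and R5, with none of the 12 at 0.

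The promoters of 5 members are given because these genes took 3 different courses: Fos, Fosb and Junb were highest in R2, Dusp1 was kept and Ier3 was highest in R5. The windows are the 250 bases before the RefSeq start, in build GRCm38.p6, and lie at chr12:85473640-85473889 on the plus strand (Fos), chr7:19310046-19310295 on the minus strand (Fosb), chr8:84978749-84978998 on the minus strand (Junb), chr17:26508473-26508722 on the minus strand (Dusp1) and chr17:35821463-35821712 on the plus strand (Ier3). Each reads 5′ to 3′ along the gene. Capitals mark TGACG, the core of the cyclic AMP response element, the GC box GGGCGG and the TATA sequence TATAAA, on either strand.
Fos: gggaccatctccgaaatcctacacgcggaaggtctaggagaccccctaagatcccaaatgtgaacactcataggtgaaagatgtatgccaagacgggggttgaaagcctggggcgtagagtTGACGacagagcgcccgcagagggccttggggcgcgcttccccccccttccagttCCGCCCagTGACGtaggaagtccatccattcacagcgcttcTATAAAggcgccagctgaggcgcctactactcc
Fosb: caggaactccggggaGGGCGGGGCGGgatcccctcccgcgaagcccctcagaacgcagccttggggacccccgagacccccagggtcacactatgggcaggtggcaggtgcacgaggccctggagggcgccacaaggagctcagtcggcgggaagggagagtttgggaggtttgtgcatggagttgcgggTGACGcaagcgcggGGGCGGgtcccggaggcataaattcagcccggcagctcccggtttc
Junb: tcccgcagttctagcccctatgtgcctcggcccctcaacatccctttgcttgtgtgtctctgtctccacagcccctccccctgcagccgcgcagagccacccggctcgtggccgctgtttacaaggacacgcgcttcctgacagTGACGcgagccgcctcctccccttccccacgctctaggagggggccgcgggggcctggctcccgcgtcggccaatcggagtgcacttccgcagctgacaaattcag
Dusp1: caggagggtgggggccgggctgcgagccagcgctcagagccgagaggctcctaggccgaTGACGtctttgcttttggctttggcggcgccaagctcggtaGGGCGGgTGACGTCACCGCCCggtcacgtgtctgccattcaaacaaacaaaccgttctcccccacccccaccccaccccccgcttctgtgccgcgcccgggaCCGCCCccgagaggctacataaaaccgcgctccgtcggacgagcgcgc
Ier3: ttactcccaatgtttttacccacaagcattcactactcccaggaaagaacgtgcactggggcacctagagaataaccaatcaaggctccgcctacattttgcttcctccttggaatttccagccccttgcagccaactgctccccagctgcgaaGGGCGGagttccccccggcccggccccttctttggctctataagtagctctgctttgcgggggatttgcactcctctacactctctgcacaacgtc
RefSeq windows were at hand for 8 members, and Egr1 and Ier2 were not among them. The window of Jund ends at a RefSeq start 1210 bases upstream of the GENCODE M21 gene, and those of the other 7 end within 30 bases of a GENCODE start. The Jund window held none of the motifs searched, so the counts over the 7 are the same as those over the 8. TGACG was in 5 of the 8 (Fos, Fosb, Junb, Dusp1 and Atf3), against 17.8% of all 32851 promoter windows of that length. The full palindrome TGACGTCA, which holds TGACG on both strands, was in Dusp1, against 1.55% of all windows. GGGCGG was in 6 of the 8, against 32.7% of all windows, and TATAAA in Fos, against 12.4%. The CArG box bound by serum response factor, the AP-1 site TGANTCA and the E26 core CCGGAA were in none of these 8 windows, against 1.47%, 6.75% and 12.0% of all. Sites further upstream than 250 bases were not searched, so this absence holds for these windows only. Variant sites were not counted: the Jun window, not shown, holds TGACATCA, which the pattern TGANTCA cannot match. A match is a description of the letters, and TGACG was found both in members that were highest in R2 and in Dusp1, which was not.

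Fos, the founding member of the FOS family, stood at 34.7 RPKM in R2 and at 1.80, 1.61 and 5.17 RPKM in R3, R4 and R5. Jun, its usual partner in AP-1, had 44.6 RPKM in R2 and 2.10, 1.76 and 6.22 RPKM in R3, R4 and R5. Fosb, a close relative of Fos, had 11.3 RPKM in R2 and 0.54, 0.20 and 1.28 RPKM in R3, R4 and R5. These genes stood far higher in R2 than in any other library, were at their lowest in R4 and were intermediate in R5. Egr1 followed the same order at a lower level, with 7.21, 0.74, 0.30 and 1.45 RPKM in R2, R3, R4 and R5. Junb, a JUN protein that often opposes JUN, had 29.8 RPKM in R2 and 5.04, 3.01 and 6.69 RPKM in R3, R4 and R5. Ier2 had 52.8 RPKM in R2 and 10.9, 5.69 and 12.6 RPKM in R3, R4 and R5. These last 2 genes had the same order of populations but kept a larger part of their R2 level. Atf3, a stress-induced transcription factor, was barely detected, with 1.12 RPKM in R2 and 0.13, 0.12 and 0.34 RPKM in R3, R4 and R5, values that stood for about 51, 7, 7 and 14 reads. Its R3 and R4 levels were not distinguishable at this depth, with intervals of 0.055 to 0.28 RPKM in R3 and 0.052 to 0.27 RPKM in R4.

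The other 3 members did not follow this course. Jund, the JUN protein that many resting cells make without a stimulus, had 63.2, 35.4, 42.0 and 74.1 RPKM in the 4 populations from R2 to R5. Dusp1 had 27.1, 34.0, 18.4 and 19.0 RPKM from R2 to R5, within a narrow range. Ier3 had 7.48, 13.2, 18.2 and 27.4 RPKM from R2 to R5, higher at every step. A higher value at every step was found for 42 of the 9942 genes that reached 1 RPKM in some library (0.422%), Ier3 among them, and these 9942 genes are the set behind all shares of genes below. Highest in R2 and lowest in R4 was the order of 7 of the 10 members, and of 6939 of those 9942 genes (69.8%), so that order as such is the common one in these libraries.

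**Figure D1:**
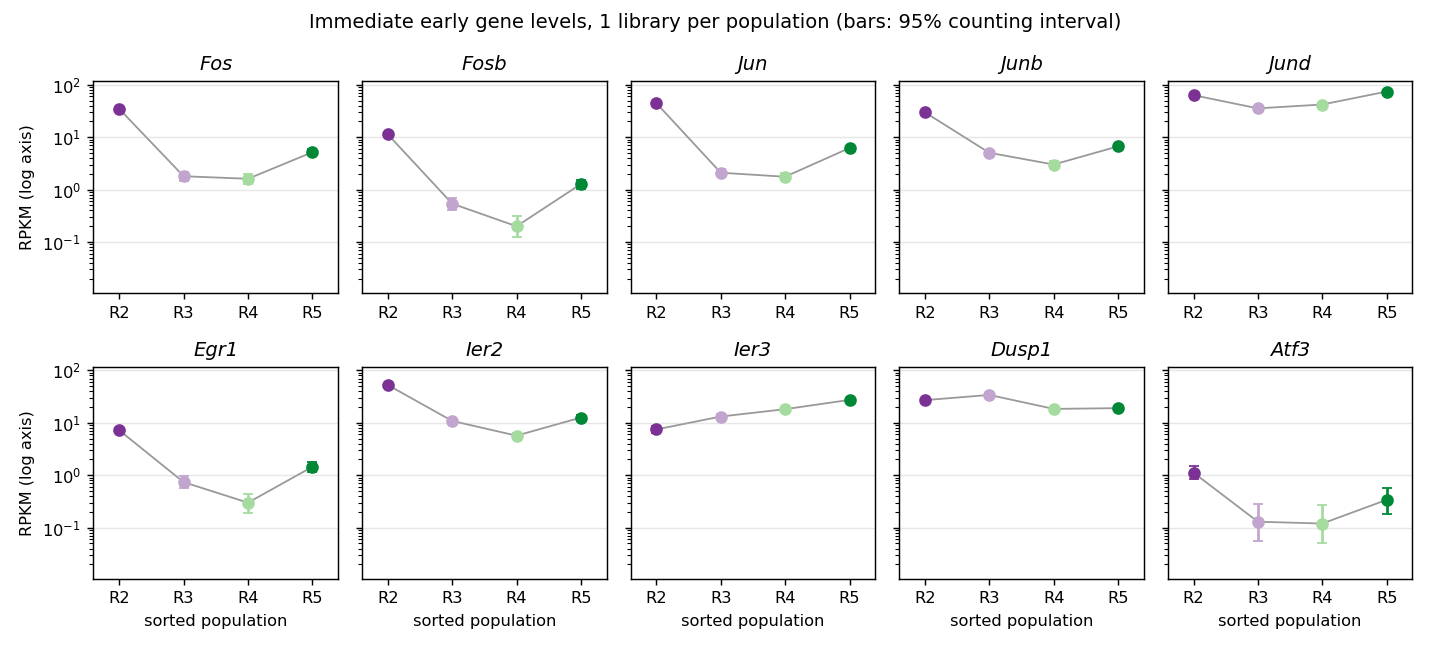
RPKM of each member on a log axis by sorted population in order of maturation, 1 point per library, with the 95% counting interval from estimated reads. Fos, Fosb, Jun, Junb, Egr1, Ier2 and Atf3 are highest in R2 and lowest in R4, while Jund stays between 35.4 and 74.1 RPKM, Ier3 goes up at each step and Dusp1 stays between 18.4 and 34.0 RPKM.

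Ranks within a library do not depend on how libraries are scaled to each other. Fos ranked 2137th of the 19564 symbols in R2, and 7014th, 5454th and 3485th in R3, R4 and R5. Jun ranked 1622nd, 6698th, 5248th and 3079th from R2 to R5. Both thus ranked lowest in R3, higher in R4 and higher again in R5. Genes at 1 RPKM or more numbered 9761, 8111, 6531 and 7410 in R2, R3, R4 and R5. A rank can therefore go up while the RPKM goes down. Jund ranked 1108th, 1034th, 484th and 325th from R2 to R5. Ier3 ranked 6116th, 2567th, 1056th and 863rd, and Dusp1 ranked 2738th, 1072nd, 1042nd and 1193rd in R2, R3, R4 and R5. By rank, Jund and Ier3 thus stood higher in each later population.

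Within the JUN genes the mixture differed between R2 and the later populations, a comparison that scaling between libraries does not touch. Jund made up 46.0% of the summed RPKM of Jund, Jun and Junb in R2, and 83.2%, 89.8% and 85.2% in R3, R4 and R5. Jun made up 32.4% in R2 and 4.93%, 3.77% and 7.15% in R3, R4 and R5, and Junb 21.6%, 11.8%, 6.44% and 7.69% in R2, R3, R4 and R5. The level of Jund over that of Jun was 1.42 in R2 (95% counting interval 1.35 to 1.50), 16.9 in R3 (14.4 to 19.8), 23.9 in R4 (20.2 to 28.3) and 11.9 in R5 (10.7 to 13.3). The intervals of R3, R4 and R5 all lie far above that of R2. By contrast, the level of Jun over that of Fos was 1.29 in R2 (1.21 to 1.37), 1.17 in R3 (0.91 to 1.52), 1.09 in R4 (0.84 to 1.43) and 1.20 in R5 (1.02 to 1.42), intervals that overlap throughout. Ier2 over Junb was 1.77 in R2, 2.16 in R3 and 1.89 in both R4 and R5, so those genes also kept a nearly constant ratio. Fos over Fosb was 3.06 in R2 (2.83 to 3.31), 3.33 in R3 (2.37 to 4.78), 8.05 in R4 (4.91 to 13.4) and 4.04 in R5 (3.19 to 5.18), with Fosb in R4 resting on about 21 reads.

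**Figure D2:**
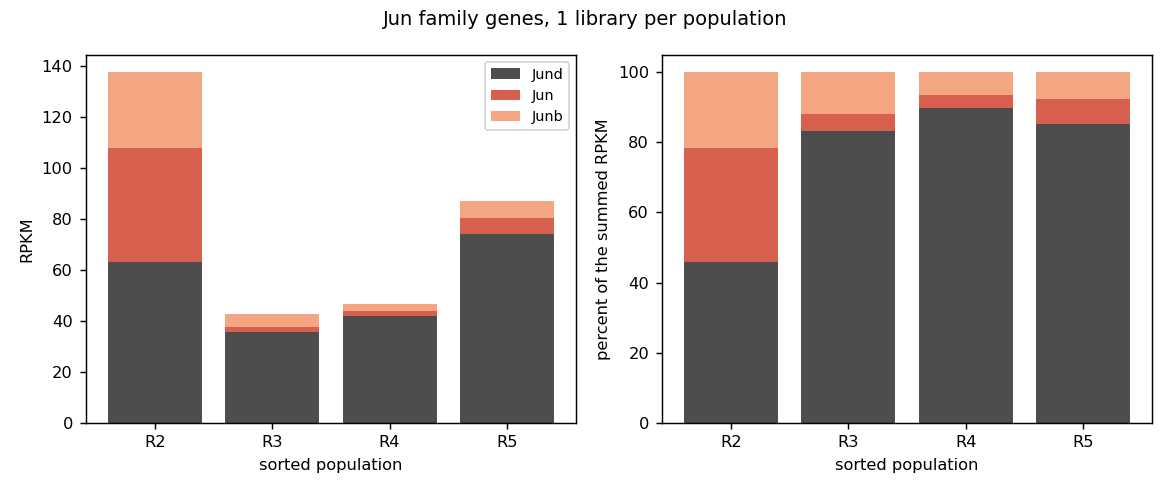
Stacked RPKM of Jund, Jun and Junb by population (left) and the same as percent of their sum (right), 1 library per population. Jund is 46.0% of the sum in R2 and 83.2% to 89.8% in R3, R4 and R5, while the sum itself is lowest in R3.

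R3 against R2 asks how basophilic erythroblasts differ from their immediate precursors. Fos was 19.3-fold lower in R3 than in R2 on the RPKM scale (95% counting interval 15.7 to 24.0), Jun 21.2-fold lower (18.2 to 24.8) and Fosb 21.0-fold lower (16.0 to 28.5). Egr1 was 9.74-fold lower (7.37 to 12.9), Junb 5.90-fold (5.12 to 6.80), Ier2 4.86-fold (4.36 to 5.41) and Atf3 8.62-fold (3.68 to 21.2). Jund was 1.78-fold lower (1.67 to 1.90), whereas Ier3 was 1.76-fold higher (1.48 to 2.11) and Dusp1 1.26-fold higher (1.17 to 1.35). The members thus differ widely in size of difference, with Fos, Jun and Fosb at about 5% of their R2 level (5.19%, 4.71% and 4.77%).

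Log2 ratios were taken of RPKM + 1, which shrinks those of low genes. On that scale 6 of the 10 members were at least 2-fold lower in R3 than in R2 and 0 at least 2-fold higher, against 55.1% of the 9942 genes lower and 3.81% higher. The share of members lower is thus near that of all genes as deposited. The members' median log2 ratio was -2.21, and that of all genes -1.09. With each library scaled by the median of gene ratios the same count was 6 lower and 2 higher, against 18.0% and 8.38% of all genes, and with globins removed it was 6 and 2, against 22.8% and 7.81%. Rescaling put Ier3 at 1.45 and Dusp1 at 1.15 with median scaling, past 2-fold, and moved Jund from -0.82 to 0.05, so that the direction of Jund between R3 and R2 depends on the scaling. Fos, Jun, Fosb, Junb, Egr1 and Ier2 stayed at least 2-fold lower in R3 under all 3 scalings, and Jun was at -3.88, -2.95 and -3.13 as deposited, with median scaling and without globins.

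Markers of other blood cells differed between R3 and R2 to unlike degrees. The 10 megakaryocyte markers summed to 49.2 RPKM in R3 and 50.4 RPKM in R2, with a median of 70.2% of the R2 value. In R3, all 12 granulocyte markers stood between 4.40% and 14.1% of their R2 RPKM, with a median of 7.41%, and the myeloperoxidase gene Mpo had 95.2 RPKM in R3 and 1966 RPKM in R2. The 8 mast cell and basophil markers with at least 1 RPKM in R2 stood between 4.96% and 12.4%, and the 5 lymphoid markers between 3.32% and 10.4%. Among the 13 macrophage markers in the files, the 11 with at least 1 RPKM in R2 had a median of 83.3% in R3, while the sum of all 13 was 87.6 RPKM in R3 and 313 RPKM in R2, or 28.0%. Within that list C1qa stood at 83.3% and Marco at 86.3%, against Csf1r at 23.1% and Lyz2, which granulocytes also express, at 13.4%. Hepatocyte markers went the other way, at 577 RPKM in R3 and 238 RPKM in R2, with none of the 12 at 0 and 8 of them at least 2-fold higher. Over the 9761 genes that reached 1 RPKM in R2, the R3 value was 37.3% of the R2 value at the median and 9.97% at percentile 5. Fos, Jun and Fosb thus lay below that value, as most granulocyte markers did, Egr1 and Atf3, at 10.3% and 11.6%, lay above it but within the granulocyte range, and Junb and Ier2, at 16.9% and 20.6%, lay above every granulocyte marker. The part of any of these cells in the members' levels was not tested, and in sorted bulk samples fewer cells of a type and less RNA per cell cannot be told apart.

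**Figure D3:**
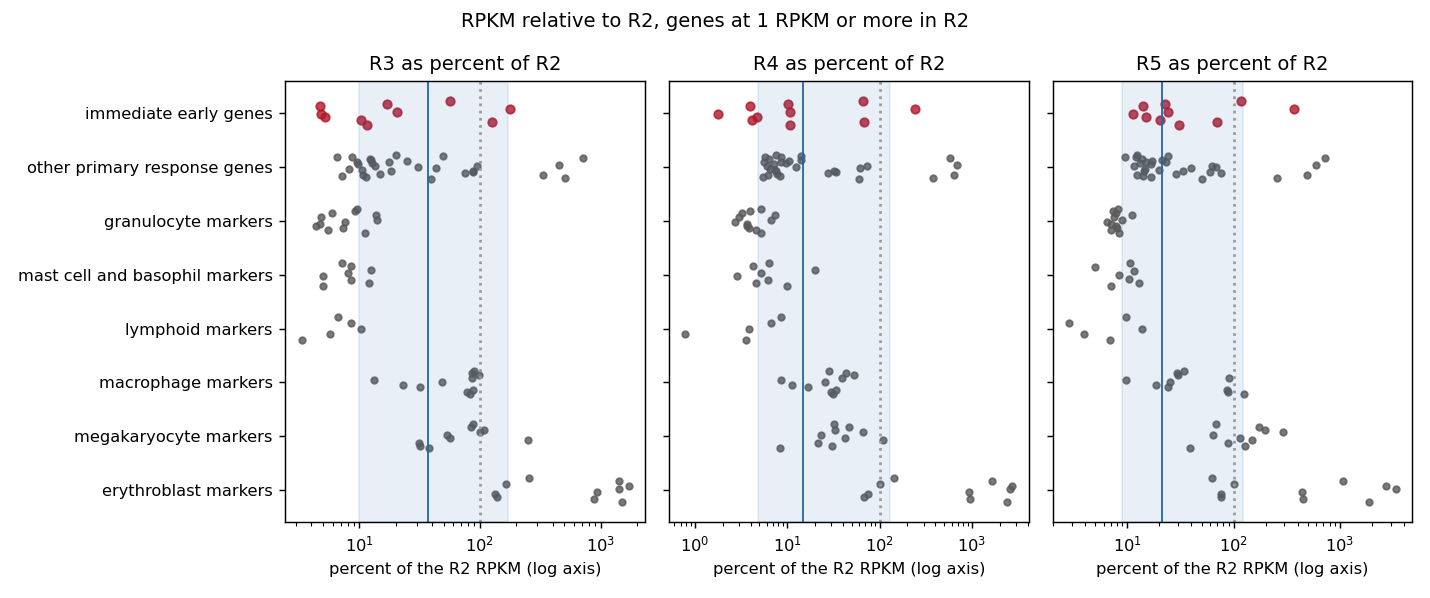
RPKM in R3, R4 and R5 as percent of the R2 value on log axes, 1 point per gene, for the immediate early genes (red) and other fixed lists (grey), over genes that reached 1 RPKM in R2 and were above 0 in the population shown. The blue line is the median of all 9761 genes that reached 1 RPKM in R2, including any at 0 in the population shown. The band runs over their range from percentile 5 to percentile 95. In R3, Fos, Jun and Fosb lie among the granulocyte markers, below the band, and Ier3 and Dusp1 lie above 100%.

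R4 against R3 covers the passage to late erythroblasts. As deposited, 0 members were at least 2-fold lower and 0 higher, against 32.1% and 0.493% of all genes, and the members' median log2 ratio was -0.26, against -0.77 for all genes. Fos was at 1.61 RPKM in R4 and 1.80 in R3, and Jun at 1.76 in R4 and 2.10 in R3, differences within counting error (R4 over R3 of 0.89 for Fos, 0.67 to 1.20, and of 0.84 for Jun, 0.67 to 1.05). With median scaling their log2 ratios turned to 0.63 and 0.59. Fosb had 0.20 RPKM in R4 and 0.54 in R3, and Egr1 had 0.30 in R4 and 0.74 in R3. Junb had 3.01 RPKM in R4 and 5.04 in R3, Ier2 had 5.69 in R4 and 10.9 in R3, and Dusp1 had 18.4 in R4 and 34.0 in R3. The globin share also went up at this step, and hepatocyte markers summed to 197 RPKM in R4 and 577 in R3. With median scaling Fosb and Egr1 were at log2 ratios of -0.10 and -0.08, against -0.36 and -0.42 as deposited, and Junb, Ier2 and Dusp1 were at 0.28, 0.14 and 0.20, so the direction of these last 3 between R4 and R3 depends on the scaling. Ier3 was higher in R4 than in R3 under all 3 scalings, at 0.44 as deposited and at 1.48 and 1.09 under median scaling and globin removal, and Jund was likewise at 0.24, 1.30 and 0.90. Under median scaling 2 members (Ier3 and Jund) were at least 2-fold higher and 0 lower, against 4.26% and 0.382% of all genes. Under globin removal Ier3 alone was, against 1.98% of all genes higher and 2.83% lower. A pseudocount of 0.1 RPKM in place of 1 put 2 members (Fosb and Egr1) at least 2-fold lower, against 59.2% of all genes.

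R5 against R4 is the step to the population with reticulocytes, and here all 10 members had a higher RPKM in R5, as did 7575 of the 9942 genes (76.2%). Fosb was at 1.28 RPKM in R5 and 0.20 in R4, 6.40-fold higher (95% counting interval 3.91 to 10.6). Egr1 was at 1.45 RPKM in R5 and 0.30 in R4, 4.83-fold higher (3.07 to 7.83), Jun 3.53-fold higher (2.93 to 4.28) and Fos 3.21-fold higher (2.51 to 4.14). Junb was 2.22-fold higher (1.81 to 2.75), as was Ier2 (1.89 to 2.62), Jund 1.77-fold (1.66 to 1.87) and Ier3 1.50-fold (1.34 to 1.69). The interval of Dusp1, 1.03-fold (0.94 to 1.13), holds 1, and that of Atf3, 2.83-fold higher with an upper bound of 7.75, reaches below 1.

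On the log2(RPKM + 1) scale, 3 of 10 members passed 2-fold upward in R5, Jun at 1.39, Fos at 1.24 and Ier2 at 1.03, and 0 downward, against 3.97% and 0.604% of all genes. The members' median was 0.92, against 0.27 for all genes. Under median scaling 3 were higher (Jun, Fos and Fosb) and 0 lower, against 1.75% and 2.56% of all genes, and Dusp1 turned to -0.31. Under globin removal 4 were higher (the same 3 and Egr1) and 0 lower, against 2.98% and 1.58%. With a pseudocount of 5 RPKM in place of 1 0 members were higher, against 0.795% of all genes, and with 0.1 RPKM 7 were, against 16.0%. Markers of other cells moved here as well. Granulocyte markers summed to 474 RPKM in R5 and 237 in R4, and megakaryocyte markers to 78.3 RPKM in R5 and 25.9 in R4, with the platelet chemokine gene Pf4 at 31.6 RPKM in R5 and 7.04 in R4. Macrophage markers summed to 78.4 RPKM in R5 and 43.1 in R4, although their median stood at 29.9% of R2 in R5 and 30% in R4. Hepatocyte markers summed to 418 RPKM in R5 and 197 in R4, mast cell and basophil markers to 11.1 RPKM in R5 and 5.14 in R4, and lymphoid markers to 2.96 RPKM in R5 and 1.45 in R4. These sums are as deposited. With median scaling, 6 of 10 megakaryocyte, 2 of 11 macrophage and 1 of 12 hepatocyte markers were at least 2-fold higher in R5. For granulocyte, mast cell and basophil, and lymphoid markers that count was 0. The part of these other cells in the members' R5 levels was not tested.

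R5 against R2 sets the end of the course against its beginning. Fos was at 5.17 RPKM in R5 and 34.7 in R2, Jun at 6.22 in R5 and 44.6 in R2, and Fosb at 1.28 in R5 and 11.3 in R2. Egr1 was at 1.45 RPKM in R5 and 7.21 in R2, Junb at 6.69 in R5 and 29.8 in R2, and Ier2 at 12.6 in R5 and 52.8 in R2. Those 6 were at least 2-fold lower in R5 on the log2(RPKM + 1) scale, against 76.9% of all genes, and Ier3 alone was at least 2-fold higher, at 27.4 RPKM in R5 and 7.48 in R2, against 2.74% of all genes. Ier3 was 3.66-fold higher in R5 (95% counting interval 3.12 to 4.33) and its log2 ratios were 1.74, 3.14 and 2.87 as deposited, under median scaling and under globin removal. The members' median log2 ratio of -1.86 lay near the -1.65 of all genes.

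Under either rescaling only Fos, Fosb and Jun stayed at least 2-fold lower in R5 than in R2, at -1.04, -1.16 and -1.15 with median scaling, where 13.7% of all genes were that much lower and 29.8% with globins removed. The higher ones were Ier3, Jund and Dusp1 with median scaling, against 9.42% of all genes, and Ier3 and Jund with globins removed, against 7.35%. Jund was at 74.1 RPKM in R5 and 63.2 in R2, and its log2 ratio of 0.23 became 1.80 and 1.46 under the 2 rescalings. Dusp1 was at 19.0 RPKM in R5 and 27.1 in R2, and its ratio turned from -0.49 to 1.04 with median scaling and 0.71 with globins removed. R5 against R3, which leaves R2 out, is a different comparison and no check of this one. In it 0 members were at least 2-fold lower and 4 higher (Fos, Jun, Jund and Ier3), against 13.1% and 0.664% of all genes. The members' median there was 0.53, against -0.47 for all genes.

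**Figure D4:**
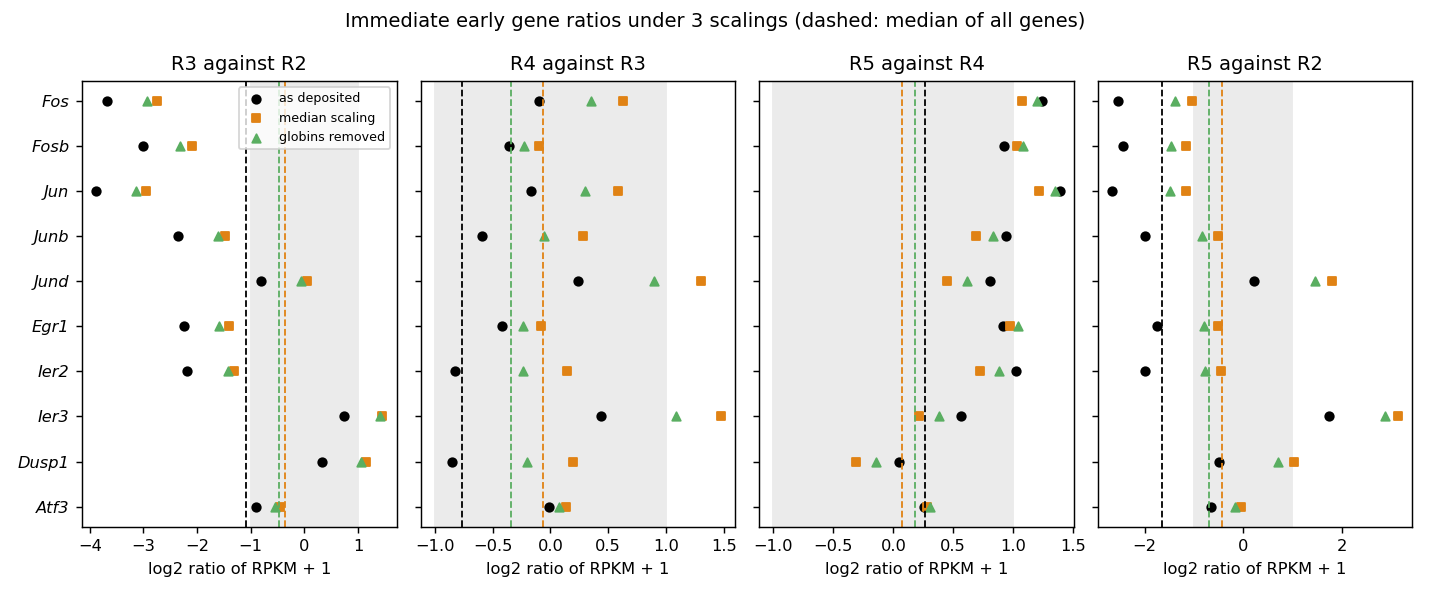
Log2 ratio of RPKM + 1 of each member in 4 comparisons (first-named population over second), as deposited and under 2 rescalings, with dashed lines at the median of all genes under each and grey shading within 2-fold. In R3 against R2, Fos, Fosb, Jun, Junb, Egr1 and Ier2 stay below -1 under each scaling, whereas Jund and Dusp1 change sign or pass 2-fold with the scaling in several comparisons.

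Genes around the members in the same pathways were counted in R3 against R2 by the same 2-fold rule, by which the deposited RPKM put 55.1% of all genes lower and 3.81% higher. After median scaling those shares were 18.0% and 8.38%. Among 8 other AP-1 genes, 7 had at least 1 RPKM in at least 1 library, and 3 of these were at least 2-fold lower in R3 than in R2 and 0 higher. Jdp2, a JUN partner that represses AP-1 targets, was at 0.58 RPKM in R3 and 7.68 in R2, and Batf at 0.98 in R3 and 7.05 in R2. Atf2, which pairs with JUN at cyclic AMP response elements, was at 3.36 RPKM in R3 and 5.28 in R2. Of 44 other primary response genes 30 had at least 1 RPKM, and 17 were lower and 4 higher in R3 than in R2 as deposited, or 10 and 4 with median scaling. Myc was at 15.8 RPKM in R3 and 118 in R2, and Zfp36l2, which binds AU-rich messages and speeds their decay, at 26.1 in R3 and 130.5 in R2. On the higher side, Myd116, also called Ppp1r15a, which restores translation after stress, was at 192 RPKM in R3 and 42.4 in R2, Gadd45a at 99.1 in R3 and 29.6 in R2, and Socs3, a feedback inhibitor of cytokine receptors, at 11.5 in R3 and 1.61 in R2.

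Genes that carry the inducing signal were counted in the same way. Of all genes, 55.1% were at least 2-fold lower in R3 as deposited and 18.0% with median scaling. As deposited, median log2 ratios were -0.94 for serum response and CREB activator genes, -1.17 for MAP kinase genes and -1.09 for all genes. Of 13 serum response and CREB activator genes at 1 RPKM or more, 6 were at least 2-fold lower in R3 than in R2 and 0 higher as deposited, or 3 and 0 with median scaling. Srf, the serum response factor, had 34.4, 5.61, 2.40 and 5.20 RPKM from R2 to R5. It was highest in R2 and lowest in R4, as were Fos and 69.8% of the 9942 genes. Atf1, a CREB relative, was at 33.5 RPKM in R3 and 40.5 in R2, and the coactivator gene Ep300 at 16.1 in R3 and 20.2 in R2. Of 18 MAP kinase genes 10 were lower and 1 higher in R3 than in R2 as deposited, or 2 and 1 with median scaling. The higher one was Map2k3, which activates p38, at 117 RPKM in R3 and 57.3 in R2, while Mapk14, which encodes p38 alpha, was at 24.3 in R3 and 64.5 in R2. Of 7 other MAP kinase phosphatase genes at 1 RPKM or more, 4 were lower and 1 higher. Dusp2, also an early response gene, was at 0.82 RPKM in R3 and 10.9 in R2, while Dusp8 was at 12.6 in R3 and 2.02 in R2. Of 18 genes for AU-rich element binding and deadenylation, steps that set how long such messages last, 12 were lower and 0 higher as deposited, or 3 and 0 with median scaling. Khsrp was at 73.3 RPKM in R3 and 159 in R2.

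The genes with the most similar courses were found as those with the smallest root mean square difference between centred log2(RPKM + 1) profiles over the 4 populations, among the 5597 genes that reached 10 RPKM in some library. Jun was the nearest of all to Fos, and Fos the nearest to Jun, at 0.10 log2 units. Next to Fos came Rangrf and Bmyc, at 0.15 and 0.18, and next to Jun came Cmtm7 and Card9, at 0.16 and 0.18. Dusp1 was nearest to Pif1, Tpx2 and Gata1, the last with 120, 161, 90.7 and 90.5 RPKM from R2 to R5. Ier3 was nearest to Hist1h1c, a linker histone gene, at 0.067, followed by Hist1h2bm and the ferritin gene Ftl1, and Jund to Hist1h4c, Lgmn and Itga2b. Ier2 was nearest to Zfp771, Rogdi and Mfng, Junb to Fdx1, Scrn2 and Faim, and Fosb to 2310079N02Rik, Coro2a and Adap1. The mean profile of the 8 members at 10 RPKM or more was nearest to Tusc4, Gm71 and Fkbp11, at 0.12 each. That mean leaves out Egr1 and Atf3, which did not reach 10 RPKM. It mixes unlike courses, as Jund, Dusp1 and Ier3 are in it with members highest in R2. With 4 points per profile this likeness is a description of these libraries.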

How the data were processed

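Polyadenylated RNA of 4 sorted populations was sequenced, 1 library each, per the labels' protocols. The authors deposited RPKM values, 1 per gene symbol with 2 decimals; the genome build was mm9, per the submitters' processing notes, while for aligner, counting program, annotation and gene length nothing is given in the sources used here. Depth was derived from the RPKM of 1 read over 1 base, the commonest value between 30 and 60 RPKM in each library, and with it the values of 10 symbols came out as whole reads over a target of 1 to 5 bases in all 4 libraries, 7 of them over 1 base (tolerance 0.006 RPKM per read); it would be off by a whole factor if the shortest target were longer. That fit is no independent check of the depth, as the step was chosen from the same values, with ties settled by their multiples. Reads per member were estimated with the longest RefSeq-paired transcript in GENCODE M21 (GRCm38), so they are approximate. Exact Poisson and binomial 95% intervals cover counting error only. The 9942 genes that reached 1 RPKM in some library were compared as log2 ratios of RPKM + 1, called at 2-fold. All 10 members passed. No test was possible with 1 library per group. Alternatives were pseudocounts of 0.1 and 5 RPKM, other filters, median scaling over 2745 genes at 5 RPKM or more in every library, and removal of the 8 globin genes. Members and lists were chosen with earlier results of these data known. All members were named, and of each other list the 3 of highest mean and, at 5 RPKM or more, 2 at either end of the R5 to R2 ratios could be named. Protein identities planned for the JUN and FOS families were not computed, as no protein sequences were used here. Only the 2-fold call was tried on simulated data, with changes planted in genes at 10 RPKM or more. The depth, read estimates, intervals, rescalings, likeness and motif search were not tried in this way. Python 3.11.15, numpy 2.4.6, pandas 2.3.3 and scipy 1.17.1 were used.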

Additional observations from a re-analysis of the deposited data

How the results depend on the processing

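No paired analysis was possible because each population has 1 library and the labels give no shared replicate numbers. With R2 not used, R5 against R3 took the place of R5 against R2, which is a different comparison. In it 0 members were at least 2-fold lower and 4 higher, against 13.1% and 0.664% of all genes. The members' median was 0.53, against -0.47 for all genes. The 6 members called lower in R5 against R2 changed sign, with Fos at 1.14, Fosb at 0.57, Jun at 1.22, Junb at 0.35, Egr1 at 0.49 and Ier2 at 0.20. That change follows from their levels, below R2 and above R3 in R5, and is no check on the processing. Median scaling gave 2 members higher and a median of -1.36 in R3 against R2, 2 higher in R4 against R3, and 3 lower, 3 higher and a median of -0.47 in R5 against R2. Removal of globins gave 2 higher and -1.51, then 1 higher, then 3 lower, 2 higher and -0.78 in the same comparisons. A pseudocount of 5 RPKM gave medians of -1.32 in R3 against R2 and -1.15 in R5 against R2, and 0 members higher in R5 against R4. A pseudocount of 0.1 RPKM gave 2 members lower in R4 against R3 (59.2% of all genes) and 7 higher in R5 against R4 (16.0% of all genes). The cause of these shifts was not tested beyond the arithmetic of each setting. The filter on low values cannot move a single ratio, and of the 170 single-member ratios recomputed under the other settings 72 stayed within counting error, 92 moved and those 6 called ones changed sign. Those 6 all came from R5 against R3, and a sign change was counted only for ratios called at 2-fold. Smaller ratios also changed sign with the scaling. Dusp1 in R5 against R2, for 1, went from -0.49 to 1.04 with median scaling and counts as moved. Depth limits Atf3 in all libraries but R2, and Fosb and Egr1 in R4, where fewer than 30 reads were estimated. Differences between libraries of the same population could not be measured.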
